A study of Mus musculus with 24 samples.

Results

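Transcripts of 3 beta-defensins (Defb1, Defb6 and Defb8) and of the calprotectin subunits S100a8 and S100a9 were followed in whole mouse back skin under 3 feeding schedules. These 5 genes were taken by symbol from 29758 gene symbols with exon counts, and each symbol had a single row in the table. They were chosen by measured values of these libraries, among them the low counts of Defb8 in the MD group, so differences of MD from the other groups in the mean level of these genes are described below without a test. RNA came from wild type male C57BL/6NCrl mice of about 8 weeks, housed in 12 h light and 12 h dark with lights on at zeitgeber time (ZT) 0, with shaved skin in telogen, the resting phase of the hair cycle. Access to food was limited to ZT0 to ZT4 in the ED group, to ZT5 to ZT9 in the MD group and to ZT12 to ZT16 in the EN group for 18 to 21 days. Each group was sampled every 4 h from ZT0 to ZT28, with 1 library per group and time, which makes 8 libraries per group and 24 in all. Each library held RNA pooled from 2 to 4 mice, and no group was fed freely. No group had a second pool at the same sampling time. The p-values of the fits therefore set an effect against the scatter of single pools around the fitted model, misfit included.

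Beta-defensins are small secreted cationic peptides with 3 disulfide bonds that damage the membranes of microbes and can attract immune cells. In skin they are made mainly by epithelial cells, some at a steady level and some after infection, cytokines or injury, while mouse Defb6 is also known from skeletal muscle. S100A8 and S100A9 form a heterodimer, calprotectin, that binds calcium and withholds zinc and manganese from microbes. It is the most abundant cytosolic protein of neutrophils, is also present in monocytes, and is induced in keratinocytes of wounded or inflamed epidermis.

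The 3 defensin genes lie on chromosome 8 (GRCm38, GENCODE annotation). Defb6 spans chr8:19225478-19228209 on the plus strand with 2 exons. Defb8 spans chr8:19445769-19447606 on the minus strand, also with 2 exons, and Defb1 spans chr8:21776599-21795185 on the plus strand. S100a8 (chr3:90668978-90670035, plus strand) and S100a9 (chr3:90692632-90695721, minus strand) neighbour each other on chromosome 3 with 3 exons each. The defensin coding sequences are printed to show how unlike the members are over the exons that were counted, with codons for cysteine in capitals.
Defb1: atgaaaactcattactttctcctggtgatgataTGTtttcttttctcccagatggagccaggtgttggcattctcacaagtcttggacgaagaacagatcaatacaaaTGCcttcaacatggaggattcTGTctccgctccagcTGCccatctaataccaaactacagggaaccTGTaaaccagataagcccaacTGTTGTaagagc
Defb6: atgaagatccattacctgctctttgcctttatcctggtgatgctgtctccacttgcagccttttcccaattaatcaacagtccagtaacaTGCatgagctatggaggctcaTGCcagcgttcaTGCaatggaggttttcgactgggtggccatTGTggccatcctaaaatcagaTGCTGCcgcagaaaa
Defb8: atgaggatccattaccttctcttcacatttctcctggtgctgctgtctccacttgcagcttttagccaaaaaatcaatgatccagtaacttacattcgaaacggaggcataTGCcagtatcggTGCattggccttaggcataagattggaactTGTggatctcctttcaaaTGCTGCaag
Defb1 has 7 cysteine codons among 69, Defb6 has 6 among 63 and Defb8 has 5 among 60. Defb6 and Defb8 were identical at 68.9% of aligned columns of the coding sequence, and Defb1 shared 51.1% with Defb6 and 54.3% with Defb8. No run of 31 bases was common to any pair of the 5 transcripts. For Defb8, however, 51 of its 257 runs of 31 bases (19.8%) also occurred in annotated transcripts of Defb3, Defb4, Defb5 or Defb7, so its reads could be shared with those genes. The other 4 members had no such run in another gene.

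The upstream sequences of Defb6 and Defb8, which lie 217560 bp apart, are shown because these genes are alike there and differed in the counts. Each window holds the 250 bases before the RefSeq start (GRCm38.p6), Defb6 at chr8:19225228-19225477 (plus strand) and Defb8 at chr8:19447607-19447856 (minus strand), and capitals mark matches to CANNTG (an E-box) or TTGCNNAA (a C/EBP-like palindrome).
Defb6: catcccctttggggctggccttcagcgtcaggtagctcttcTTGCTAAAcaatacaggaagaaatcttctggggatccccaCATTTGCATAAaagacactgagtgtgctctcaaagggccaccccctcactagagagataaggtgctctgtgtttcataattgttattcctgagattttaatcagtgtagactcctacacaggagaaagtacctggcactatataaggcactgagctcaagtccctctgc
Defb8: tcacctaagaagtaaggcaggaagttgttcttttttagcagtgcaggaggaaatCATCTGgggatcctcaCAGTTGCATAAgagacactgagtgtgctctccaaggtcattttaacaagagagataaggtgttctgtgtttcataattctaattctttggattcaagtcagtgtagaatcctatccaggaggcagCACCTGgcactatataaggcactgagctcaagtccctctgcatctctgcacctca
The windows were identical at 73.5% of aligned columns. Defb8 held 3 E-box matches and Defb6 held 1, read on both strands, and 66.2% of all 32851 RefSeq promoter windows held at least 1. Defb6 held 2 palindrome matches and Defb8 held 1, against 9.56% of windows with any; in both genes the TTGCATAA match overlaps an E-box match and the capitals run together. An NF-kB-like motif, GGG and CC with 5 bases between them, occurred 4 times in Defb6, where 2 of the matches overlap, and not in Defb8 (45.8% of windows). CTA and TAG with 4 bases between them (a MEF2 motif of muscle genes, 3.2% of windows), TGANTCA (AP-1, 6.75%) and CACGTG (the clock E-box, 6.02%) were in neither window.

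Libraries held between 13222667 and 26316851 exon counts, with medians of 17650141 over all libraries and 20265595 in MD. Markers of skin were high in every library: Krt14 of basal keratinocytes ranged from 810 to 1574 CPM (counts relative to library size, scaled by TMM) and Krt10 of differentiating keratinocytes from 2025 to 2865. Skeletal muscle was present too, with Myh4, the fast myosin heavy chain, between 2831 and 8330 CPM. Genes of the growing hair shaft summed to 1028 CPM in ED ZT24 and 2927 CPM in EN ZT0, against 29.2 to 86.0 CPM in the other 22 libraries. Neutrophil granule genes were near absent: Elane, Ngp, Camp and Ltf did not exceed 0.319, 0.147, 0.292 and 0.228 CPM, while Mpo lay between 0.279 and 6.62 CPM. In whole tissue, fewer cells of a type and less RNA per cell cannot be told apart.

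Levels between genes were compared per length, on the authors' RPKM scale. Defb6 was the most abundant member in each group, with a median of 48.9 RPKM in ED, 86.1 in MD and 49.6 in EN. In ED the medians of Defb8 (17.1) and Defb1 (16.9) were close and their ranges overlapped, from 4.47 to 32.4 and from 13.2 to 20.4. In EN Defb8 stood at 25.1 and Defb1 at 16.1, again with overlapping ranges. In MD the order changed, with Defb1 at 17.1 above Defb8 at 3.08, but the ranges still overlapped because of a single high Defb8 library at 26.7 RPKM. The calprotectin genes were lowest in all 3 groups, S100a9 between medians of 0.813 and 1.75 RPKM and S100a8 between 0.674 and 1.34, and their ranges overlapped in each group.

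Defb8, the shortest member, had the widest gap between feeding groups on the CPM scale among the 5 genes. In ED it was counted at 14.9, 18.3, 37.2, 75.8, 27.6, 57.9, 61.2 and 6.94 CPM from ZT0 to ZT28. In EN the same times gave 73.7, 23.04, 70.4, 66.1, 33.5, 41.3, 22.3 and 70.8 CPM. In MD they gave 1.27, 4.83, 1.56, 37.6, 11.5, 4.72, 1.07 and 2.65 CPM. The MD library was below both other libraries at 8 of 8 times, and 7 of 8 MD libraries lay below the lowest EN library and 6 of 8 below the lowest ED library. The groups nevertheless overlapped, through MD ZT12 and ZT16 on one side and ED ZT28 on the other. On the log2 scale the mean was 2.03 ± 1.70 in MD, 4.87 ± 1.18 in ED and 5.50 ± 0.74 in EN (SD, n = 8 each), so MD was lower by differences of -2.84 and -3.47. These differences helped to choose the gene and carry no test.

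**Figure D1:**
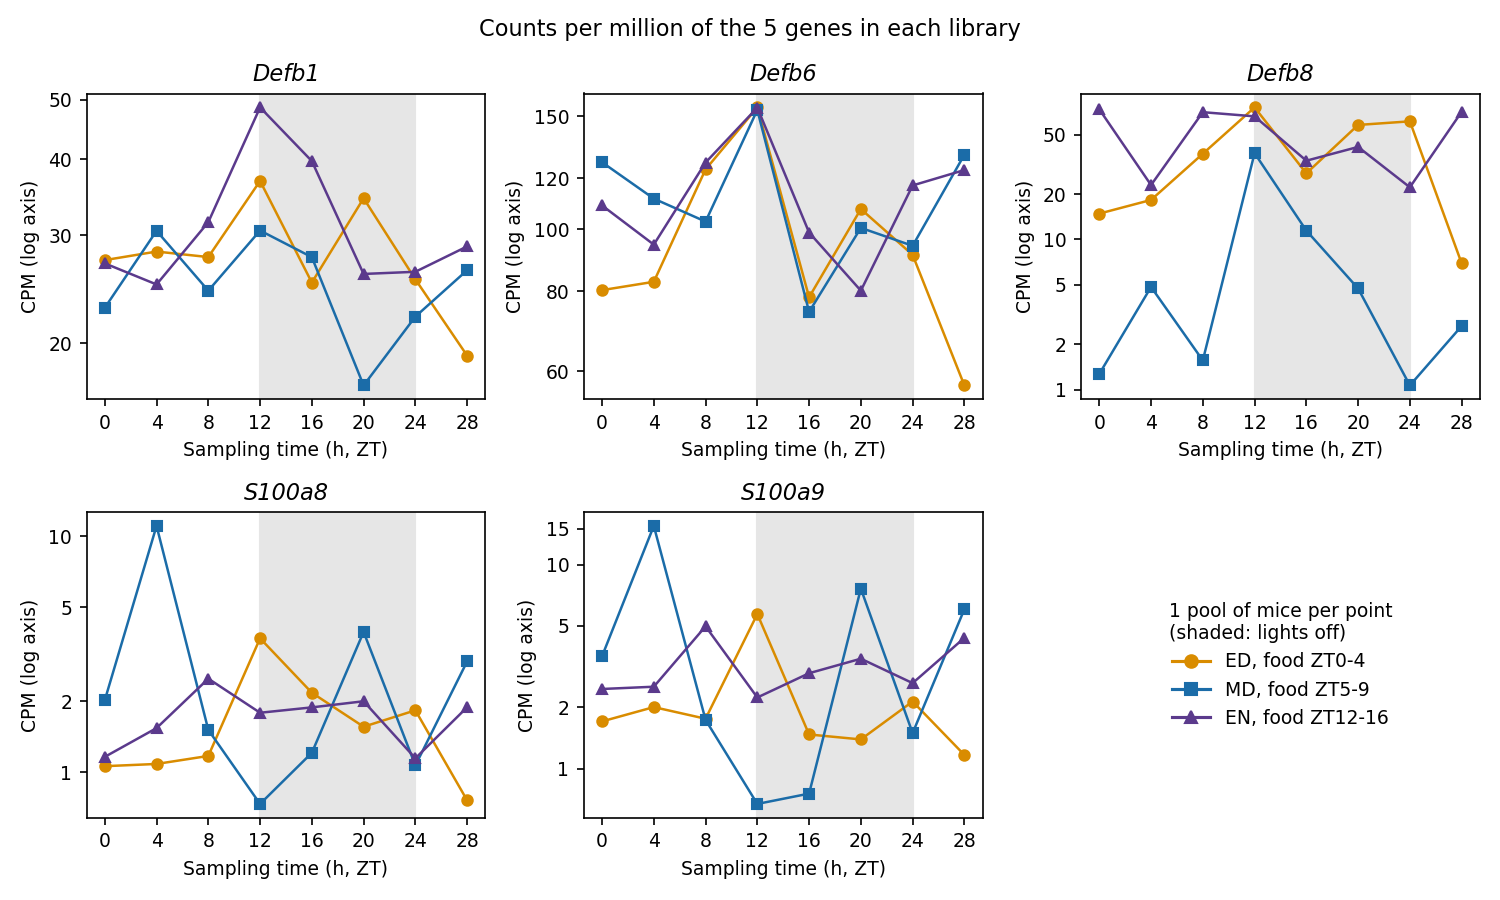
CPM (log axis) of the 5 genes against sampling time (h, ZT), 1 point per pooled library, coloured by feeding group with the dark phase shaded. Defb8 in MD lies below ED and EN at all 8 times and peaks at 37.6 CPM at ZT12, and S100a8 and S100a9 reach 11.1 and 15.5 CPM at MD ZT4.

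The spread of Defb8 within a group was also wide. The same clock hour was sampled on both days at ZT0 and ZT24 and at ZT4 and ZT28, and Defb8 went from 14.9 to 61.2 CPM in ED and from 73.7 to 22.3 in EN over the first pair. The higher library of each, ED ZT24 and EN ZT0, is also one of the pools with high hair shaft genes, and the part of that in Defb8 was not tested. Over the second pair, which holds neither pool, Defb8 went from 18.3 to 6.94 CPM in ED and from 23.04 to 70.8 in EN. Over the 6 such pairs the absolute log2 difference of Defb8 had a median of 1.50 and a maximum of 2.03. For all genes the medians of these pairs lay between 0.137 and 0.264. Defb1 (0.155) and Defb6 (0.307) were close to that range, and S100a8 (0.592) and S100a9 (0.747) were above it. The counts behind Defb8 were not small, from 25 to 1217 per library, and introns held 0.42% of its reads.

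Ranked by the fitted difference of MD from the mean of ED and EN, Defb8 (-2.82) was 14th lowest of 15719 genes. In that comparison 33.8% of all genes passed an adjusted p of 0.05 by edgeR's quasi-likelihood test, 17.3% lower and 16.5% higher. The 12 lowest included 7 small nuclear or nucleolar RNA genes such as Snora69 (-4.29) and Rnu12 (-3.65), the slow myosin genes Myh7 and Myl2, and a second defensin, Defb7; these were singled out after their values were seen. Defb7 lies 47491 bp from Defb8 and passed at a log2 difference of -3.71 (adjusted p = 5.80e-05). It was counted at 0.117 to 1.52 CPM in ED, 0.369 to 2.66 in EN and 0 to 0.793 in MD. Its highest MD library was ZT12, as for Defb8, and 7 of 8 MD libraries lay below the lowest library of each other group. Defb7 totalled 291 counts, against 12558 for Defb8, and is among the genes that share runs of 31 bases with Defb8. Counts of Defb7 and Defb8 may therefore not be independent, and the part of shared reads was not tested. Of 29 other genes of the beta-defensin family that were looked up by name, only Defb7 had enough counts to be tested. Of these 29, 12 had no count in any library. Defb14, a defensin of stimulated epithelia, stayed between 0 and 0.574 CPM.

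Transcript length moved with the same comparison. Among protein-coding genes, the 21 with a longest transcript of at most 400 bases had a median MD difference of -0.68 on the log2 scale. The median was -0.53 for the 107 genes of 400 to 600 bases, -0.29 for the 506 of 600 to 1000 and 0.04 for the 10040 above 2000. Defb8 has 287 bases, Defb7 306, Defb6 323 and Myh7 6230, with fitted differences of -2.82, -3.71, 0.05 and -3.75 in that order. S100a8 has 486 bases and S100a9 519, with fitted differences of 0.37 and 0.16. On the authors' RPKM scale these length medians were -0.18, -0.05, -0.02 and 0.00. On that scale the mean log2 difference became -2.16 for Defb8 in place of -3.15 in CPM, and 0.87 for Defb6 in place of 0.11. Each library carries a code in the labels with a number after L, and only L3 and L6 held more than 1 feeding group. Within L3, Defb8 was at 1.07 and 2.65 CPM in the MD libraries ZT24 and ZT28 and at 14.9 in ED ZT0. L6 held no MD library, so no other code allows the comparison. The parts of length and library code in the level of Defb8 were not tested.

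Defb6 and Defb1 differed little between groups on the CPM scale. Defb6 ranged from 57.0 to 154.8 CPM in ED (median 86.9), from 74.2 to 153.4 in MD (107.1) and from 80.1 to 154.7 in EN (112.9). In CPM its highest library was ZT12 in each of the 3 groups, at 154.8, 153.4 and 154.7, but in RPKM MD was highest at ZT0 (122.8), with ZT12 at 102.5. The groups overlapped, and the fitted difference of MD was 0.05, from -0.14 without MD ZT12 to 0.17 without MD ZT16. On the RPKM scale, however, MD ran from 68.1 to 122.8, above every ED (34.0 to 57.3) and EN library (38.7 to 60.5). Only 0.299% of genes had every MD library above all others on that scale. The log2 difference of MD was 0.11 in CPM and 0.87 in RPKM, and 1.11% of genes moved up as far or farther between the scales, so the size of the difference for Defb6 depends on the scale. Fast muscle genes were higher in MD too, as given below, and after group means were removed Defb6 in CPM had a positive correlation with 0 of 20 of them (median r -0.30). The part of muscle in the level of Defb6 was not tested.

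Defb1, the constitutive epithelial defensin, ranged from 19.1 to 36.8 CPM in ED (median 27.5), from 17.0 to 30.6 in MD (25.3) and from 24.9 to 48.6 in EN (27.9). The groups overlapped, and the highest library was ZT12 in ED and EN, at 36.8 and 48.6 CPM, whereas in MD ZT12 (30.6) and ZT4 (30.5) were level. In RPKM the highest library was ZT20 in ED (20.4), ZT16 in MD (23.4) and ZT12 in EN (26.6). The mean log2 difference of MD from the others was -0.23 in CPM and 0.02 in RPKM, so no direction holds across both scales. Intron counts made up 31.6% of the gene's reads, against 10.8% for Defb6.

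The calprotectin genes were low and uneven. S100a8 was counted at 1.06, 1.08, 1.17, 3.69, 2.17, 1.56, 1.83 and 0.758 CPM in ED from ZT0 to ZT28. In EN it lay between 1.14 and 2.49 CPM. In MD it was at 2.02, 11.1, 1.51, 0.732, 1.21, 3.93, 1.07 and 2.95 CPM, so ZT4, the last sampling before food was opened at ZT5, was highest. S100a9 followed, with 3.55, 15.5, 1.73, 0.671, 0.754, 7.61, 1.49 and 6.04 CPM in MD. It ranged from 1.17 to 5.72 CPM in ED, highest at ZT12, and from 2.23 to 4.98 in EN, highest at ZT8. MD thus held both the highest and the lowest library of each gene, and all 3 groups overlapped. The fitted difference of MD was 0.37 for S100a8 and 0.16 for S100a9, and without MD ZT20 it was -0.04 and -0.65. At ZT28, the same clock hour as ZT4 on the next day, MD had 2.95 CPM of S100a8 and 6.04 of S100a9, lower by 1.87 and 1.34 on the log2 scale. Counts were small, between 11 and 317 per library, which limits the precision of single values.

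Csf3r and Mmp8 were named for their likeness to S100a8 over these same libraries, so their agreement with it is no separate evidence. Csf3r, the receptor of the granulocyte growth factor G-CSF, was at 23.2 CPM in MD ZT4, 10.7 in MD ZT20 and 9.97 in MD ZT28, and at 3.02 to 8.19 CPM in the other 21 libraries. Mmp8, the neutrophil collagenase, was at 3.27 CPM in MD ZT4 and at most 1.47 elsewhere. Retnlg and Mpo, however, were highest outside MD. Retnlg was at 2.37 CPM in EN ZT8, against 2.05 in MD ZT4, and Mpo was highest in EN ZT0, at 6.62 CPM, and within MD at ZT12. Of the near absent granule genes, Elane, Camp and Ltf were highest outside MD and Ngp in MD ZT20. Lcn2, taken here from the antimicrobial list, was highest in MD ZT4 at 9.85 CPM, against at most 7.52 in EN and 4.37 in ED. It passed as higher in MD by 0.61 on the log2 scale (edgeR adjusted p = 0.0281). The 15 measured neutrophil markers together summed to 107 to 179 CPM in MD, 135 to 204 in ED and 144 to 190 in EN, a sum led by the decoy receptor Il1r2, which other cells express as well. None of the 9 tested neutrophil markers passed in MD against the other groups. After group means were removed, the median r with S100a8 was 0.454 for the neutrophil markers, 0.284 for macrophage and monocyte markers and 0.154 for genes of stressed keratinocytes. With S100a9 the same lists gave 0.508, 0.226 and 0.202. T cell and mast cell genes stood above the macrophage and monocyte markers, at 0.361 with S100a8 and 0.32 with S100a9. The differences between lists were not tested. The parts of neutrophils, monocytes and keratinocytes in these levels were not tested.

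**Figure D2:**
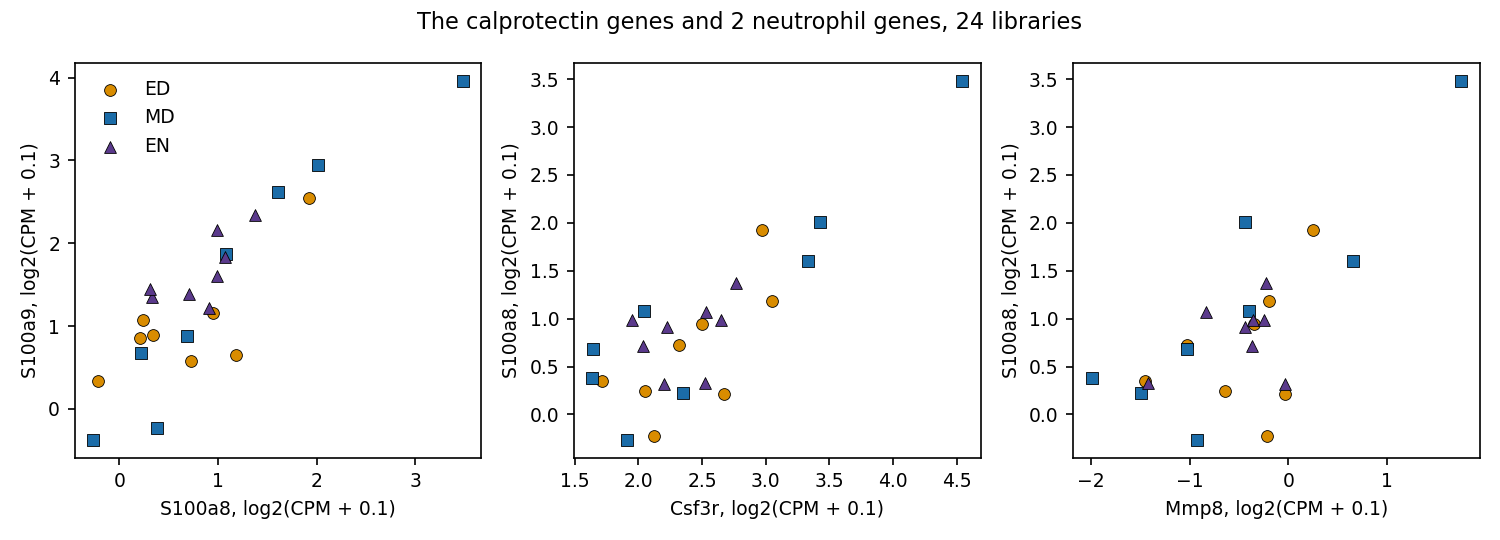
S100a9 against S100a8, and S100a8 against Csf3r and Mmp8, as log2(CPM + 0.1) in the 24 libraries, with 1 point per library coloured by feeding group. The MD ZT4 library stands at the upper right of each panel, at 11.1 CPM of S100a8 and 23.2 CPM of Csf3r. Csf3r and Mmp8 are among the genes most like S100a8 in these libraries.

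Across the 8 libraries of MD, S100a8 and S100a9 moved together with Pearson's r of 0.954 and Spearman's rho of 0.976 (exact permutation test, two-sided, p = 0.000149 and 0.000397, adjusted p = 0.0116 and 0.031 over 78 correlations). Without the 2 libraries farthest from the median, ZT4 and ZT12, r was 0.943. In ED r was 0.763 (rho 0.524; exact p = 0.035 and 0.197, adjusted 0.259 and 0.612), and it fell to -0.29 without ZT12 and ZT28, so it rested on those libraries. In EN r was 0.712 (rho 0.762; exact p = 0.0505 and 0.0368, adjusted 0.299 and 0.573), and 0.475 without ZT8 and ZT28.

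The daily course was tested as a 24 h cosine in each group with edgeR's quasi-likelihood F test, with Benjamini-Hochberg adjustment over 15719 genes. None of the 5 genes passed in ED, MD or EN, where 0.719%, 0.942% and 1.06% of all genes did. At an unadjusted p under 0.05 the counts were 1, 3 and 1 of the 5, against 2339, 2463 and 1704 of all 15719 genes. Defb8 in MD came closest, with a fitted log2 amplitude of 1.77 ± 0.53 (SE), a peak at ZT 13.5 ± 1.2 h and an adjusted p of 0.0508. It passed under DESeq2 (adjusted p = 0.00657) and without a filter on low counts (0.00874), and without MD ZT12 its adjusted p was 0.446, so its side of the threshold rests on settings and on that library. For Defb1 in EN the amplitude was 0.41 ± 0.12 and the fitted maximum fell at ZT 12.8 ± 1.2 h (edgeR adjusted p = 0.112). DESeq2 gave 0.0247 and edgeR without a filter on low counts 0.0437, while without EN ZT12 the edgeR value was 0.766. The amplitude of S100a9 in MD was 1.39 ± 0.45, highest at ZT 1.9 ± 1.3 h (edgeR adjusted p = 0.191), which passed without MD ZT20 (0.0199) or without MD ZT24 (0.0438). S100a8 in MD peaked at ZT 2.3 ± 1.9 h with an amplitude of 0.83 ± 0.38 (adjusted p = 0.253). Defb6 had adjusted p of 0.335 in ED, 0.723 in MD and 0.71 in EN.

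Differences in the daily course between groups were tested as such. None of the 5 genes passed between MD and ED, EN and ED, or EN and MD, where 0.35%, 0.401% and 0.35% of all genes did, and DESeq2 called none of the 5 either. Unadjusted p was under 0.05 for 2, 0 and 1 of the 5, and for 1841, 1829 and 2000 of all 15719 genes. The smallest adjusted p were 0.258 for S100a8 and 0.279 for S100a9 between MD and ED and 0.27 for Defb8 between EN and MD. The daily course of Defb8 in MD was therefore not shown to differ from that in ED or EN.

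Food was compared by the hours since it was last opened, 7 libraries at 3 to 8 h (after food) against 9 libraries at 19 to 24 h (before food), with feeding group and clock hour in the model. None of the 5 genes passed, where 4.85% of all genes did (2.39% higher and 2.46% lower). An unadjusted p under 0.05 was found for 3 of the 5 and for 3458 of all 15719 genes. S100a8 was at 0.732 to 2.00 CPM (median 1.17) after food and at 1.06 to 11.1 (1.83) before it. Its log2 difference was -1.28 (edgeR adjusted p = 0.0943). The value moved to -0.82 without MD ZT4 and passed only without a filter on low counts (adjusted p = 0.0475). S100a9 differed by -1.12 (adjusted p = 0.204), Defb1 by -0.27 (0.134), Defb6 by -0.26 (0.255) and Defb8 by -0.26 (0.821). DESeq2 called none of the 5. Single libraries moved these values: leaving out 1 library gave -1.07 (without MD ZT12) to 0.05 (without EN ZT8) for Defb8, -0.37 (without EN ZT8) to -0.17 (without ED ZT20) for Defb1, -0.35 (without EN ZT8) to -0.16 (without ED ZT28) for Defb6 and -1.57 (without ED ZT20) to -0.72 (without MD ZT12) for S100a9. The log2 difference of Defb8 changed sign between groups, with 1.87 in MD, -1.15 in ED and -0.87 in EN, which was not tested.

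Between EN and ED, none of the 5 and none of the 15719 genes passed by edgeR (961 had an unadjusted p under 0.05, and DESeq2 called 6). EN minus ED was 0.19 for Defb1, 0.17 for Defb6, 0.35 for Defb8, 0.08 for S100a8 and 0.53 for S100a9 on the log2 scale, with adjusted p from 0.834 to 0.981. With 1 library left out, S100a8 ranged from -0.05 (without EN ZT20) to 0.33 (without ED ZT12) and so has no stable direction. Defb1 ranged from 0.07 to 0.28, Defb6 from 0.01 to 0.28, Defb8 from 0.07 to 0.61 and S100a9 from 0.33 to 1.00, each lowest without ED ZT16 and highest without ED ZT12. For Defb8 the difference by least squares on log2 CPM was 0.48 ± 0.56 (SE), smaller than its error.

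The other genes of these pathways were taken from lists, and their counts in MD are to be read against the 16.5% of all genes that were higher and the 17.3% that were lower. With library code as a term edgeR called 0 genes in this comparison, so no list call in MD held in that fit. There, however, MD meets another group only within code L3, through the ED ZT0 library. The fit thus has little information to decide on these calls. Among 15 tested antimicrobial proteins of skin, 3 were higher and 4 lower in MD than in the other groups. Lyz1 (-0.66) and Lyz2 (-0.51), lysozymes that cut bacterial walls, and Wfdc12 (-1.27), a protease inhibitor, fell, while Pglyrp4 (0.47), which recognises peptidoglycan, rose, with edgeR adjusted p from 5.20e-05 to 0.00166. Cxcl14, an antimicrobial chemokine of epithelia, was the single member of that list with a daily course that passed, in ED, MD and EN (adjusted p = 0.00735, 0.0197 and 0.000186), and it was higher after food by 0.45 (0.0307). Of 12 tested S100 genes other than the calprotectin pair, 6 were lower in MD and 0 higher, with a list median of -0.40 against 0.00 over all genes. S100a10 and S100a6, the most counted of them, differed by -0.38 and -0.65. The part of transcript length in these values was not tested.

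Among 19 receptors and sensors, 2 were higher and 5 lower in MD, a share near the 33.8% of all genes that passed. The lipopeptide sensor Tlr2 fell by 0.60, the scavenger receptor Cd36 by 0.40 and Ccr2, a receptor of monocytes, by 0.46, while Il22ra1, a subunit of the interleukin-22 receptor of keratinocytes, rose by 0.37 (edgeR adjusted p from 9.85e-05 to 0.00158). Among 18 tested inducing cytokines and factors, 5 were higher and 4 lower. Fos (-1.03), Tnf (-0.72), Junb (-0.41) and Cebpa (-0.37) were the lower ones. After food, Cebpd (-1.03, adjusted p = 0.00514) and Nfkbiz (-0.32, 0.0257), both known to act upstream of antimicrobial genes, were lower than before food. The receptor subunit Il1rl2 was lower too (-0.29, 0.0143).

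Cell type lists differed in MD in several directions, as the plot of differences by gene list shows. These calls too were lost with library code as a term (0 genes called), a fit with the same limit of code L3. All 16 fast muscle genes that passed of 20 were higher, with a list median of 0.59, led by Myh1 (0.93), Tpm2 (0.78), Ryr1 (1.02) and Actn2 (0.87). Of 14 slow muscle genes, 6 were lower and 4 higher. The lower ones are contractile genes of slow fibres: Myh7 (-3.75, adjusted p = 1.59e-06), Myl2 (-3.05), Tnni1 (-2.63), Tnnc1 (-2.34), Myl3 (-2.04) and Tnnt1 (-1.48), of which Tnnc1, Myl3 and Tnnt1 were named after their values were seen. Myoz2 (0.98), a protein of the sarcomere's Z disc, was among the higher ones, and the list median was -0.19. The summed slow list differed little, with medians of 461 CPM in ED, 451 in MD and 437 in EN. Its most counted genes, Atp2a2 and Tpm3, which many cell types express, differed by -0.04 and -0.03 without passing.

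**Figure D3:**
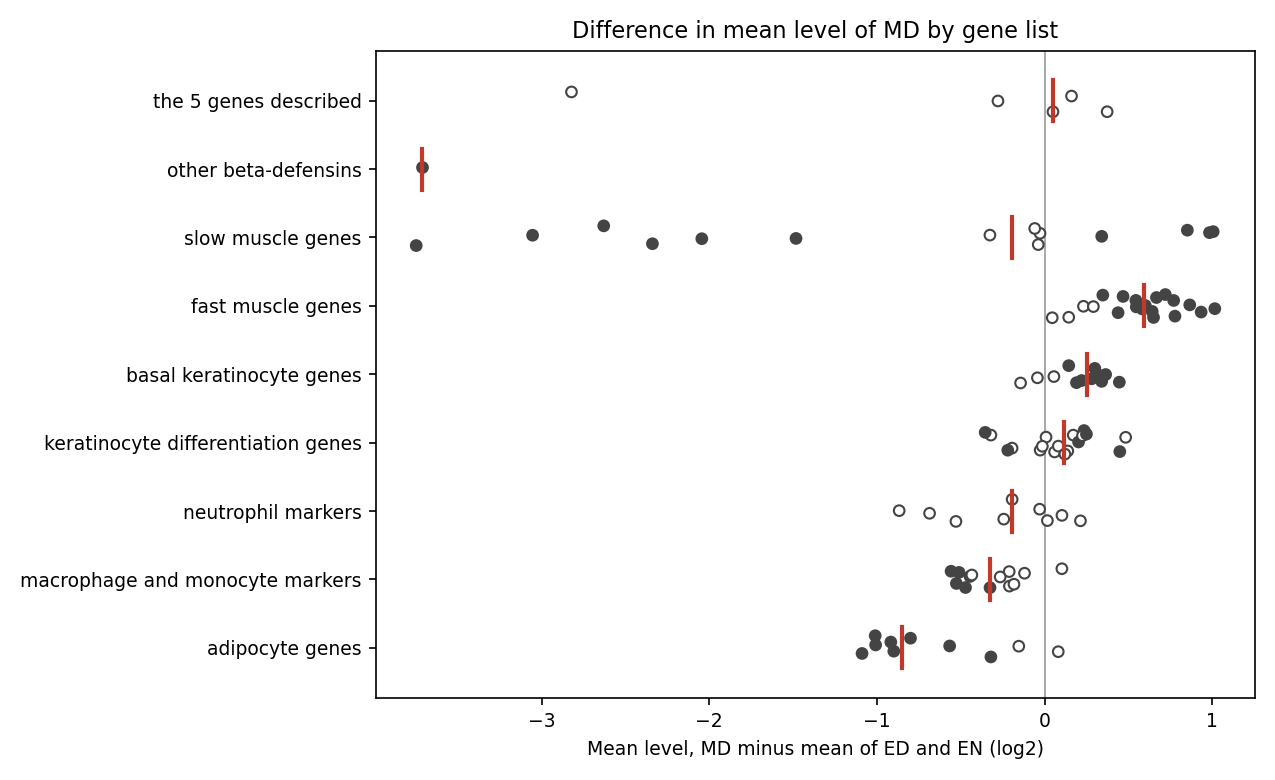
Difference in mean level, MD minus the mean of ED and EN (log2), for each tested gene of 9 groups of genes, with 1 point per gene and the list median as a red line. Filled points passed an adjusted p of 0.05 by edgeR; the 5 genes described are open because no test is given for them, and Defb8 (-2.82) lies beside the lower slow muscle genes.

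Among keratinocyte genes, 9 of 12 basal genes were higher in MD and 0 lower (median 0.25). Of those that passed, Lama3 (0.34) and Trp63 (0.30) had the smallest p, and Dst (0.45) and Itgb4 (0.36) the largest differences. Krt5 and Krt15, the most counted, differed by -0.04 and 0.06 without passing. Of 19 differentiation genes 4 were higher and 2 lower (median 0.11), a share near the 33.8% of all genes. Macrophage and monocyte markers were lower at 6 of 13, adipocyte genes at 8 of 10 and fibroblast genes at 7 of 10, with 1 fibroblast gene higher. Smooth muscle genes were higher at 7 of 9. Summed adipocyte genes ran from 2517 to 3604 CPM in MD, 3010 to 4224 in ED and 3353 to 5715 in EN. The part of these shifts in the level of Defb8 was not tested.

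The slow contractile genes Myl2 and Myh7 were low in most of the MD libraries in which Defb8 was low, and a difference between groups in how far they followed it was not tested. Myl2, the slow regulatory light chain, was counted in MD at 0, 0.439, 0.335, 4.03, 1.76, 0.737, 0.213 and 0.0491 CPM from ZT0 to ZT28, against 1.81 to 10.3 in ED and 1.41 to 7.87 in EN. Myh7, the slow myosin heavy chain, was at 0.132, 0.341, 0.838, 8.85, 10.3, 1.87, 0.384 and 0.0491 CPM in MD, against 7.93 to 30.7 in ED and 2.58 to 27.1 in EN. Both were lower in MD than in ED and EN at 8 of 8 times, and both had their highest MD values at ZT12 and ZT16, the libraries in which Defb8 was also highest. In ED these 3 genes were highest at ZT12 and lowest at ZT28, but so were Defb1, Defb6, S100a8, S100a9, Mpo and Serpinb6d, so these extremes are shared by unlike genes of those libraries. In EN, Myl2 was at 6.00, 1.41, 7.87, 4.97, 6.39, 6.56, 4.04 and 2.29 CPM and Myh7 at 15.5, 2.58, 27.1, 11.3, 21.6, 25.0, 16.3 and 11.03. At ZT28 Defb8 was among its highest EN values, at 70.8 CPM, while Myl2 was near its lowest. Within ED, MD and EN, r of Defb8 was 0.794, 0.893 and 0.393 with Myl2 and 0.73, 0.806 and 0.37 with Myh7, each over 8 libraries and given as a description. Myh7 and Myl2 had a daily course in MD that passed (edgeR adjusted p = 0.00134 and 0.0338), and that of Myh7 differed between MD and ED (0.023).

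**Figure D4:**
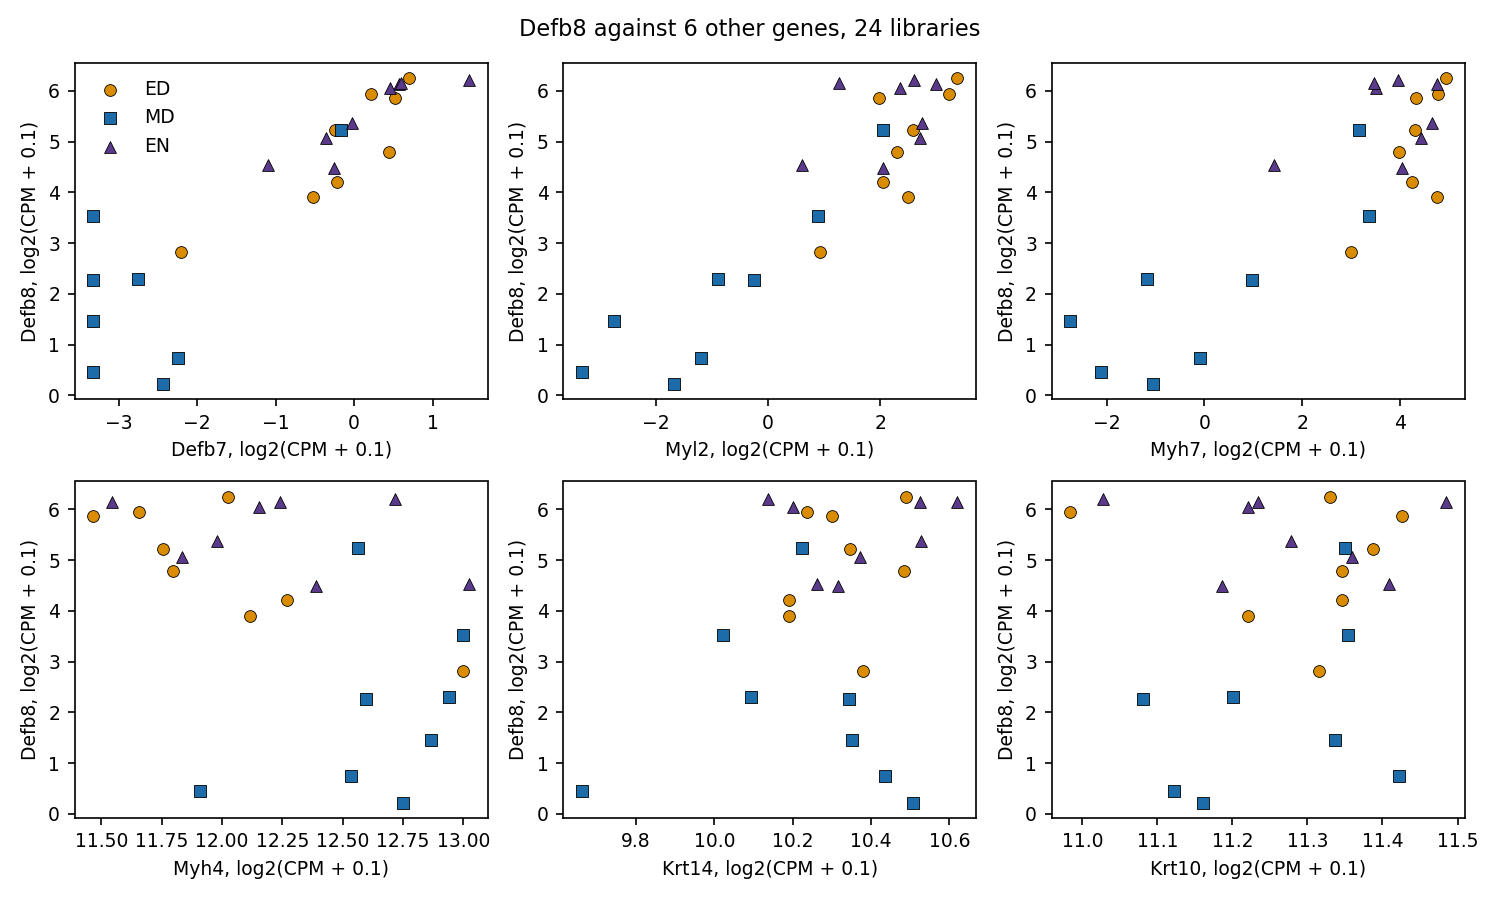
Defb8 against 6 other genes as log2(CPM + 0.1) in the 24 libraries, with 1 point per library coloured by feeding group. Most MD libraries lie at the lower left for Defb7, Myl2 and Myh7. MD ZT12 (37.6 CPM of Defb8) overlaps the other groups, as does MD ZT16 for Myh7 (10.3 CPM). Myh4 averaged 6557.5 CPM over the MD libraries, against 4350.9 for ED and 5065.0 for EN. It passed as higher in MD by 0.60 on the log2 scale (edgeR adjusted p = 0.00672). Its group maxima were alike, at 8194 CPM for MD, 8180 for ED and 8330 for EN. Krt10 spanned like ranges in all groups. Krt14 ran lower in MD, from 810 to 1454 CPM, against 1169 to 1438 in ED and 1126 to 1574 in EN.

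Likeness was measured as Pearson's r of log2 CPM over the 24 libraries after the mean of each feeding group was removed, as a description with no p. The genes most like Defb8 were Serpinb6d (0.806), Myl2 (0.791), Anxa9 (0.772), Elof1 (0.767) and 9130204L05Rik (0.764). Tnni1 was 6th (0.757), Myh7 26th (0.693) and Defb7 reached 0.708, whereas Myh4 stood at -0.24. The value for Defb7 may hold reads shared with Defb8. Serpinb6d, a serine protease inhibitor of the serpin family, was at 25.9 to 108 CPM in MD, 47.8 to 193 in ED and 59.0 to 129 in EN, with ZT12 highest in each group. Over whole lists the median likeness of Defb8 was 0.13 for slow muscle and -0.21 for fast muscle, against 0.00 for all genes. It was -0.18 for basal keratinocyte, -0.02 for keratinocyte differentiation and 0.43 for macrophage and monocyte genes. Unlike lists came near that last value, with 0.41 for T cell and mast cell genes, 0.37 for other S100 genes and 0.31 for sebaceous gland genes. With the mean of the slow list, r of Defb8 was 0.801 in MD (rho 0.69; exact permutation p = 0.0165 and 0.0694, adjusted 0.213 and 0.612), but 0.163 without ZT12 and ZT16. In ED r was 0.519 (rho 0.548; exact permutation p = 0.186 and 0.171, adjusted 0.587 and 0.612). In EN r was 0.213 (rho -0.12; exact permutation p = 0.628 and 0.793, adjusted 0.874 and 0.964), and no relation of Defb8 with the mean of a list passed.

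Among the 3 defensins, r over the 24 libraries was 0.594 for Defb1 and Defb6, 0.5 for Defb1 and Defb8 and 0.478 for Defb6 and Defb8. Defb1 was most like E030003E18Rik (0.877), Tsc22d3 (0.85), Ddit4 (0.849), Errfi1 (0.849) and Sgk1 (0.848). Tsc22d3, Ddit4 and Sgk1 are well known targets of the glucocorticoid receptor. In EN, Tsc22d3 was at 658 CPM at ZT12, where Defb1 was highest at 48.6, and at 82.6 to 312 in the other EN libraries. In MD and ED the maxima in CPM did not coincide, as Tsc22d3 was highest at MD ZT16 (665) and ED ZT0 (414), where Defb1 was at 27.6 and 27.3 CPM. In RPKM, however, Defb1 was highest at MD ZT16 (23.4) and ED ZT20 (20.4). On that scale its likeness to Tsc22d3 was 0.938, and to the other genes most like it 0.871 to 0.92. Genes most like Defb6 included Cwc15 (0.859), Rps23 (0.856), a protein of the small ribosomal subunit, Arpc5 (0.852) and Fcf1 (0.85). On the RPKM scale these 4 values were lower, from 0.349 to 0.594. S100a8 was most like S100a9 (0.899), Csf3r (0.835), AI662270 (0.825), Mmp8 (0.727) and Itgam (0.718), the integrin alpha chain of myeloid cells. For S100a9 the nearest genes after S100a8 were Csf3r (0.818), Mcoln2 (0.762), Mmp8 (0.761) and Gp49a (0.753).

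Of the 78 correlations of a member with a list mean or of the calprotectin pair within a group, 2 passed by Pearson's r and 1 by rank. Beside the pair in MD, S100a9 followed the slow muscle list in ED (r 0.835, rho 0.905; exact permutation p = 0.000942 and 0.00456, adjusted p = 0.0368 and 0.178). Without ZT12 and ZT20 that r was 0.859, but it was -0.71 in MD (rho -0.57; exact p = 0.0537 and 0.151, adjusted 0.299 and 0.612) and 0.0749 in EN (rho 0.452; exact p = 0.87 and 0.268, adjusted 0.922 and 0.652). With the neutrophil list r in ED, MD and EN was 0.84, 0.719 and 0.337 for S100a8 and 0.855, 0.753 and 0.784 for S100a9, and none of the 6 passed after adjustment (exact permutation, adjusted p from 0.213 to 0.732). With the basal keratinocyte and differentiation lists no member passed in any group.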

How the data were processed

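The authors deposited raw counts per gene for exons, introns and antisense reads of 24 libraries from a stranded total RNA kit, and RPKM values that, per the file headers and name, were normalized with cqn. The submitters' processing notes list TopHat2, SAMtools, HOMER and mm10, giving no version numbers. Of rows sharing a symbol the one with the highest total was kept (29758 of 31872). Counts were filtered (minimum count 10, 15719 genes), scaled by TMM and tested with edgeR 4.0.16 in R 4.3.3, with a mean, cosine and sine (24 h) per feeding group (15 residual degrees of freedom), or group, clock hour and food class (14). CPM on the log2 scale used a prior count of 2. Adjusted p below 0.05 counted as passing. DESeq2 1.42.0 and limma 3.58.1 on log2(RPKM + 0.5) were alternatives. Settings tried as alternatives were other scaling, no filter, library code as a term, and left-out libraries. The tests were checked on simulated data. Genes named are the 5 members, the 5 genes most like each (1 of them is not reported here), the 2 most counted of each list, up to 4 called per list, and measured beta-defensins. The members and lists were chosen with earlier results of these data known.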

Additional observations from a re-analysis of the deposited data

Results flagged for a closer look

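Of 15 gene and group combinations examined for a library far from the others, 1 stood out. S100a9 in ED was at 5.72 CPM in ZT12, and its distance to the next library made up 0.629 of the range of the group on the log2 scale. Chance flags about 1 in 20 such groups. S100a8 was also highest in that library among the ED libraries, at 3.69 CPM.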

How the results depend on the processing

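Of 1435 values of the 5 genes under alternatives, 1415 kept their direction and side of the threshold or moved by less than the spread. Numbers of genes called are given in the order rhythm in ED, MD and EN, then different rhythm of MD against ED, EN against ED, and EN against MD. DESeq2 called 388, 494, 348, 210, 272 and 243, and 6 between EN and ED in mean level. With library code as a term, edgeR called 12, 27, 11, 4, 1 and 1, then 99 after against before food and 0 for MD against the others. Without a filter on low counts, calls were 237 in MD and 323 in EN, then 83, 129 and 122. Without the second day they were 24, 78, 64, 16, 20 and 22, and 373 for food. Without ED ZT24 and EN ZT0 they were 61 in ED, 98 in EN and 34 between EN and MD. Leaving out 1 library at a time gave 25 to 153, 51 to 200, 43 to 191, 29 to 70, 33 to 122 and 22 to 72, with 302 to 1038 for food, 3366 to 5577 for MD against the others and 0 between EN and ED.

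Same-time libraries of different groups shared little: the correlation of their deviations had a median of 0.0424 (MD, ED), 0.0436 (EN, ED) and 0.103 (EN, MD), so sampling time does not pair them. With sampling time as a replicate block, 136 genes differed in rhythm between EN and ED, against 95 for the comparison with MD, and no call of the 5 genes changed; the block could not be fitted for rhythm within a group.

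For rhythm in MD the adjusted p of Defb8 was 0.00874 without a filter, 0.00657 by DESeq2 and 0.0241 without ED ZT24 and EN ZT0, and 0.0267 (without MD ZT8) to 0.446 (without MD ZT12) with 1 library left out. That of S100a9 was 0.0214 with library code and 0.0199 to 0.456 with 1 library left out. Defb1 in EN had 0.0437 without a filter and 0.0247 by DESeq2, and S100a8 after against before food differed by -1.28 without a filter. The MD difference by limma on RPKM was 0.0015 for Defb1 and 0.81 for Defb6. With library code it was -0.33 for Defb6, -5.07 for Defb8, -2.91 for S100a8 and -3.51 for S100a9, resting on the 2 codes that hold more than 1 group. The causes of these changes were not tested. Low counts limit S100a8, S100a9 and Defb7, and 1 pool per time limits every rhythm test.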
